A study of Danio rerio with 39 samples.

Results

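Unexposed zebrafish embryos of irradiation batch I13 were compared with unexposed embryos of batch I14 at the shield stage. All were whole embryos of the AB strain, grown in the same way without gamma irradiation, and served as the controls of the exposed dishes of their batch. The members were chosen by their labels, namely the 4 controls of I13 and the 4 controls of I14, which makes 8 of the 39 libraries of the series. Each library was made from a pool of embryos, with the eggs of all spawns mixed before culture. The same batches hold exposed libraries, 4 of I13 at 0.05 mGy/h and 3 of I14 at 0.005 mGy/h. The controls of batches I30 and I32, 6 of each, stand beside them as a further description. The labels give a batch for the irradiation only, so that clutch, day, exact age, extraction and sequencing cannot be told apart.

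At the shield stage gastrulation has begun. The embryo then carries a mixture of transcripts, those laid down in the egg by the mother, which are being cleared, and those made by its own genome, which became active in the blastula. Genes of the dorsal organizer, of the germ layers, of the outer enveloping layer and of the yolk syncytial layer are expressed side by side. A library of whole embryos cannot separate fewer cells of a type from less RNA per cell.

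Depth was 29993449 to 41307215 read pairs on genes in the I13 controls and 20682702 to 31468808 in the I14 controls. All levels below are CPM, the read pairs on a gene relative to the total of its library, after TMM scaling (a weighted trimmed mean that sets the libraries on one scale). The first principal component of log2 CPM held 69.6% of the variance and separated the batches, with I13 between -93.4 and -29.6 and I14 between 28.7 and 84.3. The libraries nearest to the other batch were I13 control 3 and I14 control 1. Pearson's r across genes, which are not independent replicates, was 0.969 to 0.986 within I13, 0.966 to 0.979 within I14 and 0.890 to 0.969 between the batches. Uniquely mapped pairs that fell on no gene took 6.99% to 9.88% in I13 and 5.59% to 6.36% in I14, in RNA that the labels describe as not treated with DNase. The share of counts on the 100 most counted genes was 28.0% to 33.0% in I13 and 33.2% to 34.8% in I14. Neither measure overlapped between the batches, and their part in the results was not tested. Controls 3 and 4 of I13 had been removed from the set selected by the study. Counts without them are given beside the main ones for all genes and for the lists where this is stated. Organizer and mesoderm genes such as *tbxta* and *chrd* were present in every library, while 14 of the 18 later tissue markers found in the files (haemoglobins, muscle, neuron and gut genes) had too few counts to be tested and the tested 4 summed to 1.56 to 2.75 CPM in I13 and 2.33 to 2.78 CPM in I14.

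Many genes differed between the unexposed batches. A gene counted as differentially expressed (DEG) when edgeR gave an adjusted p below 0.01 and the levels differed 1.5-fold or more. Of 14902 genes tested, 5361 were DEG (36.0%), of which 3272 were higher (22.0%) and 2089 were lower (14%) in I13 than in I14. The CPM of the groups did not overlap for 7183 genes (48.2%), 3836 of them with I13 above (25.7%) and 3347 with I13 below (22.5%). The median log2 fold change over all genes tested was 0.02. Without controls 3 and 4 of I13, 3411 genes were higher and 2567 lower among 15601 tested. Of the 5360 DEG tested again, 4807 were DEG in the same direction and 0 had turned. All libraries of this fit had also served to choose these DEG, so that it is no independent check. A single library mattered more for the lower genes. They numbered 1402, 1383 and 1583 without I13 control 1, 2 or 4, and 1434, 1423 and 1527 without I14 control 2, 3 or 4. Without I13 control 3 or I14 control 1 they numbered 2542 and 2428.

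The differences were large on one side and small on the other. Of the DEG with more than a 4-fold change, 916 were higher and 12 lower in I13. The test against a fold of 1.5 itself (glmTreat) called 1810 genes higher and 178 lower. Direction also went with abundance. In the decile of genes with the fewest counts, 16.8% were higher and 1.61% lower in I13, with a median log2 fold change of 0.56. The share higher did not fall steadily with abundance, and was largest in decile 5 from the lowest (30.6%, with 10.9% lower). In the decile with the most counts, 9.46% were higher and 36.7% lower, with a median of -0.46. The count of each list below stands against the 22.0% higher and 14% lower over all genes tested. It is given with the number of its members in the top decile by mean CPM. The deciles above rank genes by the mean of log2 CPM instead, so that the top deciles can differ in some genes.

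**Figure D1:**
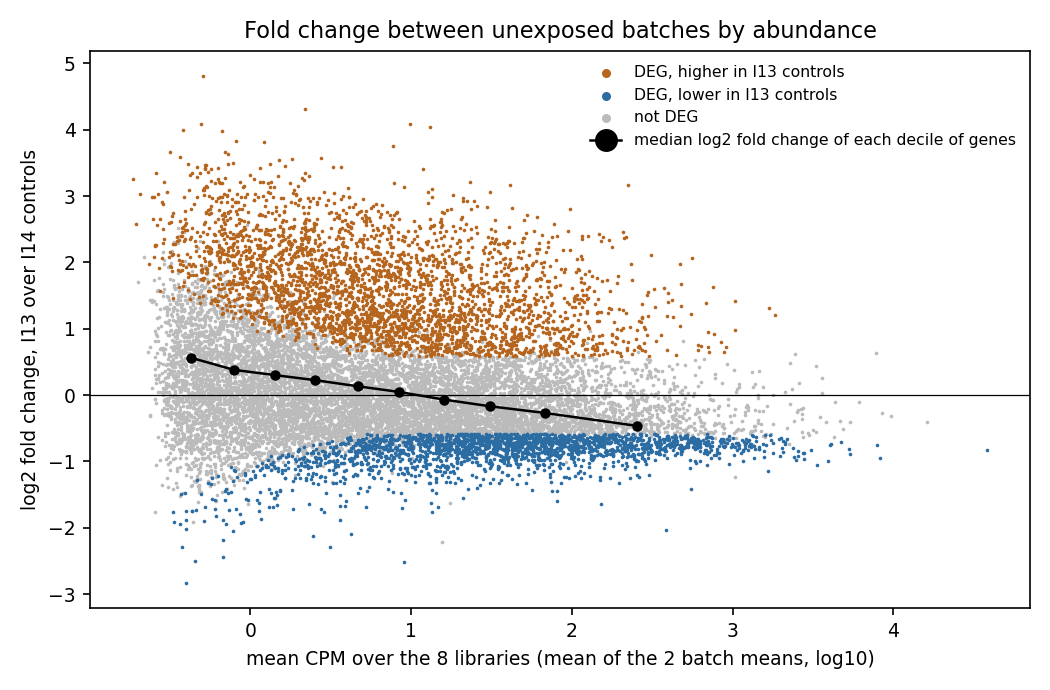
Log2 fold change of I13 over I14 controls for the 14902 genes tested, against mean CPM on a log10 axis. Brown points are DEG higher in I13, blue points DEG lower in I13 and grey points not DEG, and the black line joins the medians of the deciles of genes by abundance, which go from 0.56 in the lowest decile to -0.46 in the highest.

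Genes with the smallest p or the largest rise are described first. *hmgn1a*, which encodes a nucleosome-binding protein of the high mobility group, had 368, 522, 319 and 405 CPM in I13 controls 1 to 4, against 62.7, 45.2, 32.4 and 39.05 CPM in I14 controls. Every I13 library thus stood far above every I14 library, with a log2 fold change of 3.17 ± 0.22 (SE, adjusted p = 6.83e-06). *hmgb1b*, which encodes a DNA-bending protein of another high mobility group family, averaged 169.7 ± 33.97 CPM in I13 and 24.2 ± 5.31 CPM in I14 (SD, n = 4 each). *mbd3b*, a methyl-CpG-binding domain gene of a chromatin remodelling complex, had 11.8, 22.5, 12.3 and 11.1 CPM in I13, against 0.78, 1.32, 0.51 and 1.597 CPM in I14. Its log2 fold change was 3.75.

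YPEL3 of the yippee family had the smallest p of all genes (log2 fold change 2.41, adjusted p = 4.35e-06), with 97.4 to 132 CPM in I13 and 17.8 to 24.2 CPM in I14. DIMT1, a methyltransferase of ribosomal RNA, and TIMM17A, a subunit of the protein translocase of the inner mitochondrial membrane, were higher by 1.97 and 2.07 on the log2 scale. *eef2a.1*, named for translation elongation factor 2, showed the largest rise among the genes named by the rule for size, with 18.4, 30.4, 14.02 and 11.5 CPM in I13 and 1.47, 0.75, 0.57 and 1.55 CPM in I14 (log2 fold change 4.08). EIF4E, the cap-binding protein of translation initiation, was higher by 3.57. GADD45G, a growth arrest and DNA damage inducible gene, was higher by 3.43. TESC, a calcium-binding protein, was higher by 3.41. ZNFX1, a helicase with a zinc finger, was higher by 3.44 and *ifngr2*, a subunit of the interferon gamma receptor, by 3.14. The zinc finger gene *znf770* was higher by 3.21.

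Genes with the largest falls in I13 lost less. PPM1L, a protein phosphatase, had 2.15, 1.43, 4.88 and 2.301 CPM in I13, against 12.1, 17.9, 16.8 and 14.6 CPM in I14, and its log2 fold change of -2.52 was the lowest of the named genes. Selenoprotein P (*selenop*, -2.29), the secreted Dickkopf family member DKK3 (-2.10), the homeobox genes DLX3 (-1.88) and OTX2 (-1.77), the egg gene *npm2a* (-1.69), the growth factor midkine (MDK, -1.69), the actin gene *actc1a* (-1.67) and the zinc finger gene ZNF710 (-1.67) followed. The rule for size took only genes whose groups did not overlap, so that none of these overlapped between batches. *dlgap5*, a gene of the mitotic spindle, had the smallest p among the lower genes, with 61.7 to 80.5 CPM in I13 and 185 to 254 CPM in I14 (log2 fold change -1.64 ± 0.14, adjusted p = 9.31e-06). PRMT3, a protein arginine methyltransferase (-1.43), MMUT, the mitochondrial methylmalonyl-CoA mutase (-1.31), and C5H11orf54 (-1.32) also had very small p values.

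**Figure D2:**
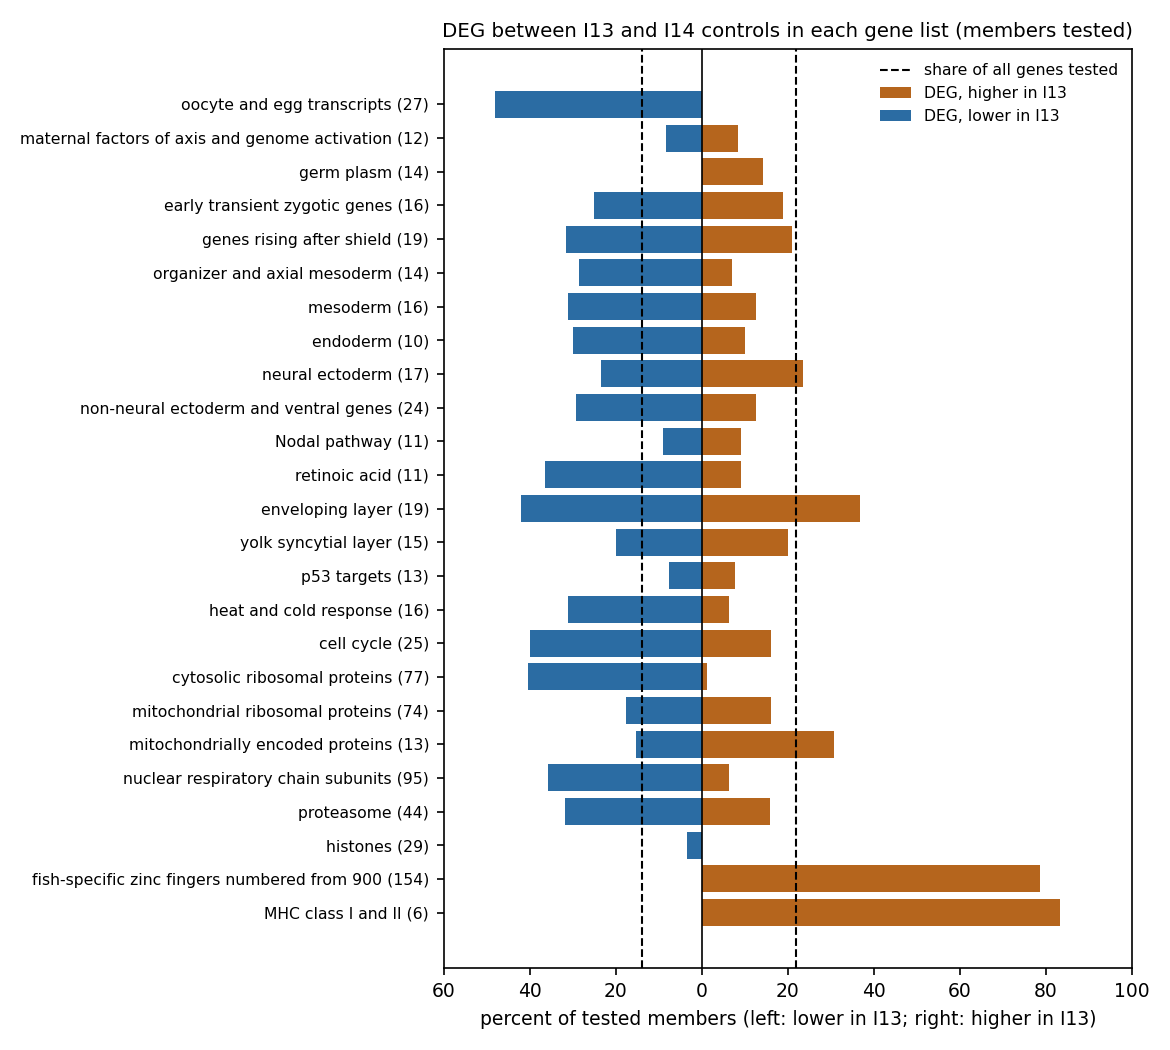
Percent of the tested members of each gene list that were DEG, to the right for those higher in I13 and to the left for those lower in I13, with the number tested in brackets. Dashed lines are the shares over all genes tested (22.0% higher, 14% lower), and the zinc finger and MHC lists reach 78.6% and 83.3% on the higher side. Members of these lists can pass the filter on counts through I13 alone, so that both shares are no support for a rise of the family.

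Zinc finger genes of the fish-specific series, named *znf* with a high number, were mostly higher in I13. In zebrafish these C2H2 genes form a large expanded family, many of whose members are first transcribed when the genome of the embryo becomes active. Of 203 in the files, 154 had enough counts to be tested, of which 121 were higher in I13 (78.6%, against 22.0% of all genes) and 0 were lower. Their median log2 fold change was 2.12 and 87 were more than 4-fold higher. A gene of this list with reads in I13 alone passes the filter on counts more easily than one that is low in both batches. Summed over the tested members, the level was 803, 1075, 441 and 699 CPM in I13 controls 1 to 4, against 262, 213, 162 and 143 CPM in I14 controls. Control 3 of I13 was thus the lowest of its batch and still above the highest of I14. Without controls 3 and 4 of I13, 139 of 177 tested were higher. Since members can pass the filter through I13 alone, neither count is support for a rise of the family.

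Single members showed the same order. *znf1053* had 29.6, 25.6, 14.8 and 28.8 CPM in I13 and 1.71, 2.36, 0.85 and 0.91 CPM in I14 (log2 fold change 4.04 ± 0.32, adjusted p = 8.51e-06). *znf1063* had 96.03, 139, 51.4 and 77.3 CPM in I13 and 15.5, 16.4, 13.02 and 10.2 CPM in I14. *znf1060*, *znf1064* and *znf1035* were higher by 2.72, 2.52 and 1.88 on the log2 scale. Zinc finger genes with a lower number, most of which have counterparts in other vertebrates, had 29 higher and 10 lower of 83 tested and a median of 0.27. Their share higher was also above the 22.0% of all genes, and 9 were more than 4-fold higher. The difference between these lists was not tested.

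Class I and II genes of the major histocompatibility complex were mostly too low to test. Of 36 in the files, 15 had no count in any of the 8 libraries and 6 were tested, and 5 of these were higher in I13. As for the zinc fingers, genes such as *mhc1zba* and *mhc1laa* passed the filter on counts through the I13 libraries, where they are high, so that this count is no support for a rise of the family. *mhc1haa* had 40.4, 52.8, 24.2 and 31.9 CPM in I13, against 6.899, 5.72, 3.56 and 2.74 CPM in I14 (log2 fold change 2.97 ± 0.30). *mhc1zba* (3.49), *mhc1laa* (3.06), *mhc1zja* (1.37) and *mhc1zea* (1.34) were the others, and the libraries of *mhc1zea* overlapped. The lists for zinc fingers and for this complex hold copies of similar sequence, whose reads the counting of unique pairs can split or drop.

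Transcripts of the oocyte and egg were read in poly(A)-selected libraries and thus only where they carry a tail. Those lower in I13 were mostly egg coat genes of the zona pellucida family. Of 27 tested, 13 were lower (48.1%, against 14% of all genes) and 0 were higher, with a median log2 fold change of -0.63. Of the tested members, 5 lay in the top decile by abundance. Among all genes, the share lower was also raised in the deciles just under it (21.9% and 25.8%). How many members lay in those deciles was not counted. Their sum was 1055, 944, 1353 and 1143 CPM in I13 and 1581, 1708, 1915 and 1748 CPM in I14, with no overlap. The count of lower members stayed between 11 and 13 when any one library was left out. Without I13 controls 3 and 4, 1 was higher and 14 were lower. Among the egg coat genes of the zona pellucida family in this list, 8 of 10 tested were lower, such as *zp2.5* (5.03 to 9.88 CPM in I13, 14.8 to 27.6 CPM in I14, log2 fold change -1.47) and *zp3a.1* (-0.91). Of all 18 tested genes with a *zp* symbol, 10 were lower (55.6%) and 0 higher, against 14% lower of all genes. *npm2a*, a nucleoplasmin of the egg, had 5.88, 5.65, 9.82 and 6.402 CPM in I13, against 14.7, 21.8, 27.3 and 25.4 CPM in I14 (log2 fold change -1.69 ± 0.22, adjusted p = 8.22e-05). WEE2, a kinase of oocyte meiosis, was lower by 1.07 on the log2 scale. CCNB2 and AURKB, which are cell cycle genes that the embryo expresses too, had log2 fold changes of -0.63 and -0.87. Both count among the 13 lower members, as do the 8 of the zona pellucida family. The members *buc* (0.96), *zar1l* (0.01), *gdf9* (0.05), *h1m* (0.09) and *pabpc1l* (0.14) showed no fall and were not called.

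Maternal factors of axis formation and genome activation had 1 higher (8.33%) and 1 lower (8.33%) of 12, with a median of -0.43 and 8 members in the top decile by abundance. The lower count was 3 without I13 control 3 or I14 control 1 and 0 without any other single library, and without I13 controls 3 and 4 there were 0 higher and 4 lower. YBX1, a maternal RNA-binding protein, had 2260, 2410, 4119 and 3267 CPM in I13 and 5216, 4963, 5101 and 4949 CPM in I14 (log2 fold change -0.75), and its call is lost in the fits with 0 lower. *tdgf1*, the Nodal co-receptor, was higher (246 to 316 CPM in I13, 158 to 188 CPM in I14, log2 fold change 0.68). *pou5f3*, the pluripotency factor of genome activation, had 2598 to 4309 CPM in I13 and 3997 to 5808 CPM in I14, which overlap, and did not pass the test (-0.63, adjusted p = 0.0106).

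Of 14 germ plasm genes tested, which are maternal as well, 2 were higher in I13 (14.3%, under the 22.0% of all genes) and 0 were lower, with a median of 0.24 and 2 members in the top decile. Their difference from the oocyte list was not tested. Their sum was 641 to 709 CPM in I13 and 581 to 602 CPM in I14. TDRD6, a tudor domain protein of the germ plasm, had 9.65, 14.1, 1.99 and 3.17 CPM in I13, against 1.08, 0.68, 0.51 and 1.004 CPM in I14 (log2 fold change 3.13 ± 0.56). Controls 1 and 2 of I13 carried most of this difference, although controls 3 and 4 also lay above I14. *ca15b*, a carbonic anhydrase gene of the primordial germ cells, was even within batches, with 13.2 to 14.9 CPM in I13 and 4.02 to 6.39 CPM in I14 (log2 fold change 1.46). The RNA helicase DDX4 (0.44, adjusted p = 0.00621) missed the fold threshold and the RNA-binding protein CELF1 (0.16, adjusted p = 0.228) did not pass.

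**Figure D3:**
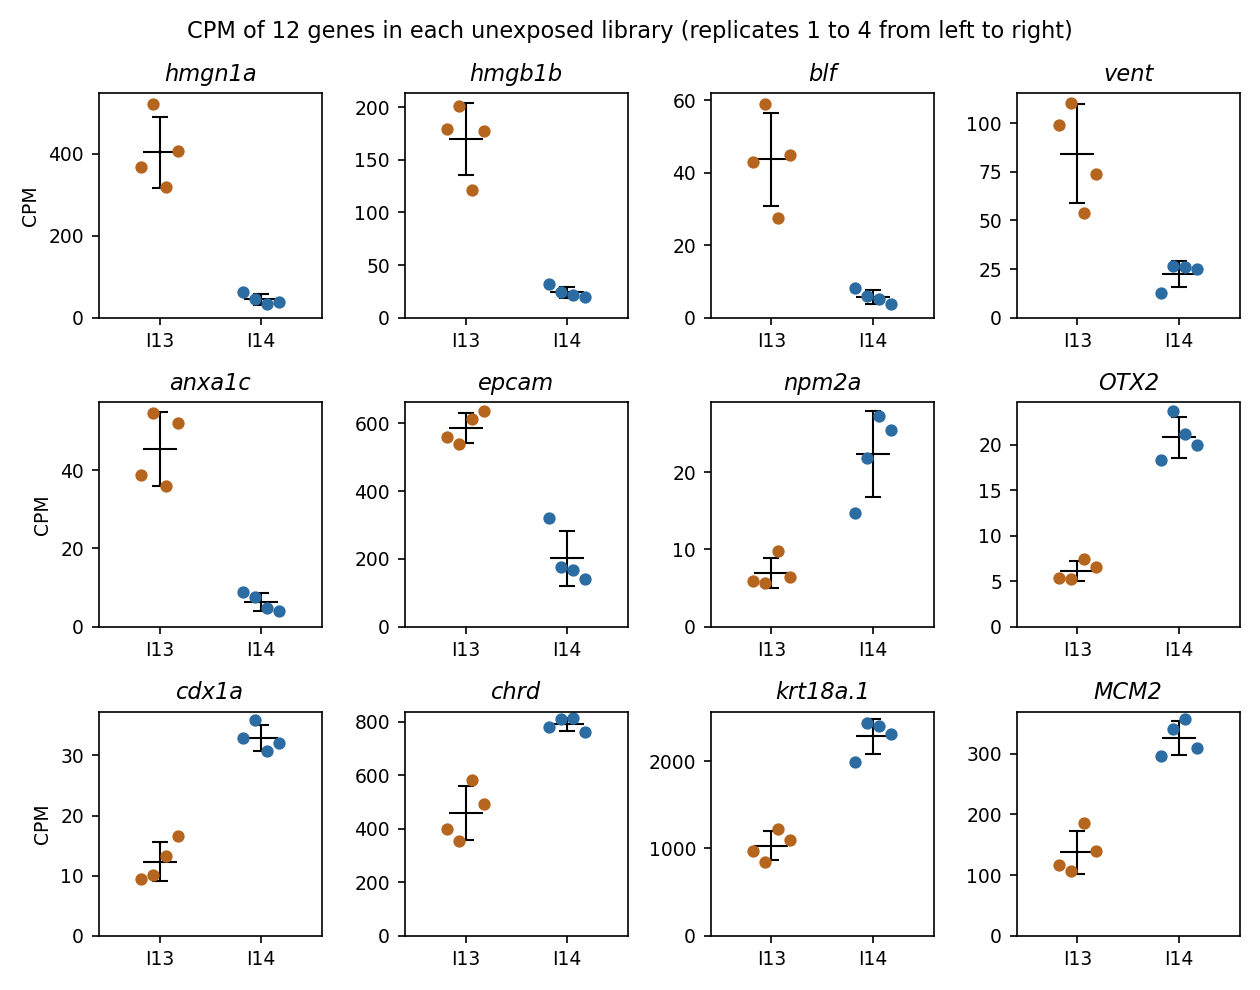
CPM of 12 genes in each unexposed library, I13 left and I14 right in each panel, with replicates 1 to 4 from left to right as points and the mean ± SD as bars. The first 6 genes were higher in I13 and the last 6 lower, and the batches do not overlap in any of them.

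Early transient genes of the zygotic genome had 3 higher (18.8%) and 4 lower (25%) of 16 tested, with 6 in the top decile. Without I13 control 1, 2 were lower. *blf*, a zinc finger gene of the early embryo, had 43.1, 59.1, 27.5 and 44.9 CPM in I13, against 8.1, 5.97, 5.04 and 3.74 CPM in I14 (log2 fold change 2.93 ± 0.26, adjusted p = 1.03e-05). *vent*, a ventral homeobox repressor, had 99.3, 110.4, 53.8 and 74.1 CPM in I13 and 12.4, 26.6, 26.03 and 25 CPM in I14 (log2 fold change 1.91). *inka1a* was higher by 1.19. The related ventral repressor *ved* was lower (369.5 to 661 CPM in I13, 778 to 958 CPM in I14, -0.76), as was the Nodal ligand gene *ndr2* (14.2 to 17.8 CPM in I13, 27.2 to 30.6 CPM in I14, -0.86). *tbx16*, a T-box gene of the mesoderm, did not overlap between batches but stayed under the fold threshold (-0.56).

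Genes that rise after the shield stage had 4 higher (21.1%) and 6 lower (31.6%) of 19 tested, with 2 in the top decile. The entry for the Notch ligand gene *dld* was matched by its symbol to DLD, a different gene, which was not called (-0.04). The ligand gene itself is thus missing from this list. *her5*, a hairy-related gene of the midbrain-hindbrain boundary and endoderm, was higher (2.58 to 4.35 CPM in I13, 0.54 to 0.89 CPM in I14, log2 fold change 2.18). The symbol ZIC2, a zinc finger gene of the neural plate, stands for a pair of genes. The first (ENSDARG00000015554) had 64.1 to 72.8 CPM in I13 and 29.97 to 32.6 CPM in I14 (1.12 ± 0.11, adjusted p = 1.66e-05), and the other (ENSDARG00000037178) went the opposite way and missed the fold threshold (-0.53, adjusted p = 0.00258). *meis3*, a hindbrain homeobox gene, was lower (1.37 to 2.22 CPM in I13, 5.27 to 5.43 CPM in I14, -1.51). *cdx1a*, a homeobox gene of the posterior body, had 9.51, 10.1, 13.2 and 16.6 CPM in I13, against 32.8, 35.97, 30.7 and 32.1 CPM in I14 (-1.42 ± 0.17, adjusted p = 5.15e-05). *her1* and SOX3 overlapped between batches (-0.11 and -0.25).

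Germ layer lists held DEG of both directions, and several hold abundant genes, of which 36.7% were lower. Among organizer and axial genes, 1 was higher (7.14%) and 4 were lower (28.6%) of 14 tested, with 3 in the top decile. The higher one, *lhx1a*, was not called without I14 control 3. Lists can share genes, and the lower FOXA2 and OTX2 of this list count again below in the endoderm and the neural list. *chrd*, the BMP antagonist chordin of the organizer, had 400.2, 356, 584 and 494 CPM in I13, against 781, 809.8, 813 and 761 CPM in I14 (-0.79 ± 0.15, adjusted p = 0.00111). The BMP-like ligand gene *admp* was lower (-0.66) and the LIM homeobox gene *lhx1a* higher (0.67). *tbxta*, the T-box gene of the notochord and margin, had 735 to 846 CPM in I13 and 458 to 569 CPM in I14 and stayed under the fold threshold (0.55, adjusted p = 0.00261).

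Of 16 mesoderm genes tested, 2 were higher (12.5%) and 5 lower (31.2%), with 6 in the top decile. Without I13 control 3 or I14 control 1, or without I13 controls 3 and 4, 8 were lower, and without I14 control 2 or I14 control 4, 1 was higher. *eve1*, a posterior homeobox gene, had 180 to 268 CPM in I13 and 319.7 to 434 CPM in I14 (-0.85), and *tbx16l* was lower by 0.66 on the log2 scale. FGF4 was higher (3.26), although at 0.43 to 1.51 CPM in I13 and 0.05 to 0.18 CPM in I14 it rests on few counts. Of 10 endoderm genes, 1 was higher (10%) and 3 lower (30%), with 4 in the top decile. *sebox*, a homeobox gene of the mesendoderm, was higher (62.4 to 97.8 CPM in I13, 28.1 to 54.8 CPM in I14, 1.05). GATA6, FOXA2 and SOX17 were lower (-0.67, -0.66 and -0.67), while *foxa3* did not pass (-0.37). The endoderm count is weak, since 0 genes were lower without I13 control 1, I13 control 4 or I14 control 2 and 1 without I13 control 2 or I14 control 4, and 2 were higher without I13 control 3.

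Neural ectoderm genes numbered 4 higher and 4 lower of 17 (23.5% each), with 3 in the top decile. Without I13 controls 3 and 4, 6 were lower. The genes listed as SOX11, transcription factors of neural precursors, were both higher. The first copy (ENSDARG00000095743) averaged 394 ± 66.0 CPM in I13 and 152 ± 5.82 CPM in I14, and the second (ENSDARG00000077811) 93.3 ± 26.9 CPM in I13 and 27.9 ± 3.13 CPM in I14 (SD, n = 4 each). OTX2, the homeobox gene of the forebrain and midbrain, went the other way, with 5.299, 5.22, 7.43 and 6.53 CPM in I13, against 18.3, 23.7, 21.2 and 19.98 CPM in I14 (-1.77 ± 0.16, adjusted p = 1.22e-05). Of 24 genes of the non-neural ectoderm and ventral side, 3 were higher (12.5%) and 7 lower (29.2%), with 7 in the top decile. This lower count was 10 without I13 controls 3 and 4. DLX3, a homeobox gene of the preplacodal ectoderm, had 1.19 to 1.91 CPM in I13 and 4.93 to 6.45 CPM in I14 (-1.88). TFAP2C and ID3, which act in the ectoderm under BMP signalling, were higher (1.42 and 1.16). BAMBI, a BMP pseudoreceptor, missed the fold threshold (-0.58).

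The Nodal list had 1 higher (*tdgf1*) and 1 lower (*ndr2*) of 11 (9.09% each), with 4 in the top decile. Without I13 control 3, 2 were lower, and without I13 controls 3 and 4, 0 were higher and 2 lower. In this list *foxh1*, a transcription factor of the pathway, overlapped between batches (-0.07), while the receptor gene ACVR1B had 0.24. In the retinoic acid list, 1 was higher (9.09%) and 4 lower (36.4%) of 11, with 2 in the top decile. Without I13 control 3, 2 were higher. ALDH1A2, the enzyme that makes retinoic acid, had 40.5, 40.9, 56.4 and 48.5 CPM in I13, against 92.1, 80.2, 85.3 and 80.97 CPM in I14 (-0.86 ± 0.13, adjusted p = 0.000216). The binding protein CRABP2 (-0.90) and the receptor *rarab* (-0.92) were lower as well, and the receptor RXRB was higher (0.86). RDH10, which makes retinal, had 0.18 and did not pass.

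The enveloping layer list held 7 higher (36.8%) and 8 lower (42.1%) of 19 tested. The lower count was 5 without I13 control 1, I13 control 2 or I14 control 2. The keratins of this list were on the lower side, 6 of 8 tested and 0 higher. Of all 13 tested genes with a *krt* symbol, 8 were lower (61.5%) and 1 was higher (7.69%). Over all genes 14% were lower, and 36.7% in the decile with the most counts. *krt18a.1* had 966, 846, 1228 and 1092 CPM in I13, against 1996, 2435, 2410 and 2308 CPM in I14 (-1.15 ± 0.15, adjusted p = 7e-05), and *krt4* and *krt8* were lower by 0.87 and 0.80 on the log2 scale. Of the other 11 genes of the list that were tested, 7 were higher and 2 lower. *anxa1c*, an annexin, had 38.8, 54.6, 35.8 and 52.03 CPM in I13, against 8.76, 7.62, 4.697 and 3.97 CPM in I14 (2.84 ± 0.25, adjusted p = 9.68e-06). *anxa1b* was higher as well. *epcam*, an epithelial adhesion molecule, had 559, 540.3, 612 and 636 CPM in I13, against 321, 177, 166 and 141 CPM in I14 (1.54). The summed level of the list was 7590 to 11900 CPM in I13 and 13840 to 15980 CPM in I14, with 11 members in the top decile by abundance. This sum is weighted to the most abundant members, *krt4* and *krt8*. The mean log2 CPM over the members did not follow it, with 7.52 to 7.76 in I13 and 7.25 to 7.53 in I14, which overlap.

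Yolk syncytial layer genes numbered 3 higher and 3 lower of 15 (20% each), with 5 in the top decile, and 5 higher and 7 lower without I13 controls 3 and 4. Without I13 control 3 alone, 5 were higher. Among the apolipoproteins, *apoc1* (475 to 632 CPM in I13, 179 to 299 CPM in I14, log2 fold change 1.40) and *apobb.1* (1.71) were higher, *apoa4b.2* was lower (-1.10), and *apoeb* did not pass (-0.40, adjusted p = 0.0364). CEBPA, a transcription factor of lipid metabolism, was lower (-0.76). The cathepsin gene *ctsla* was not called (-0.52, adjusted p = 0.0109).

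**Figure D4:**
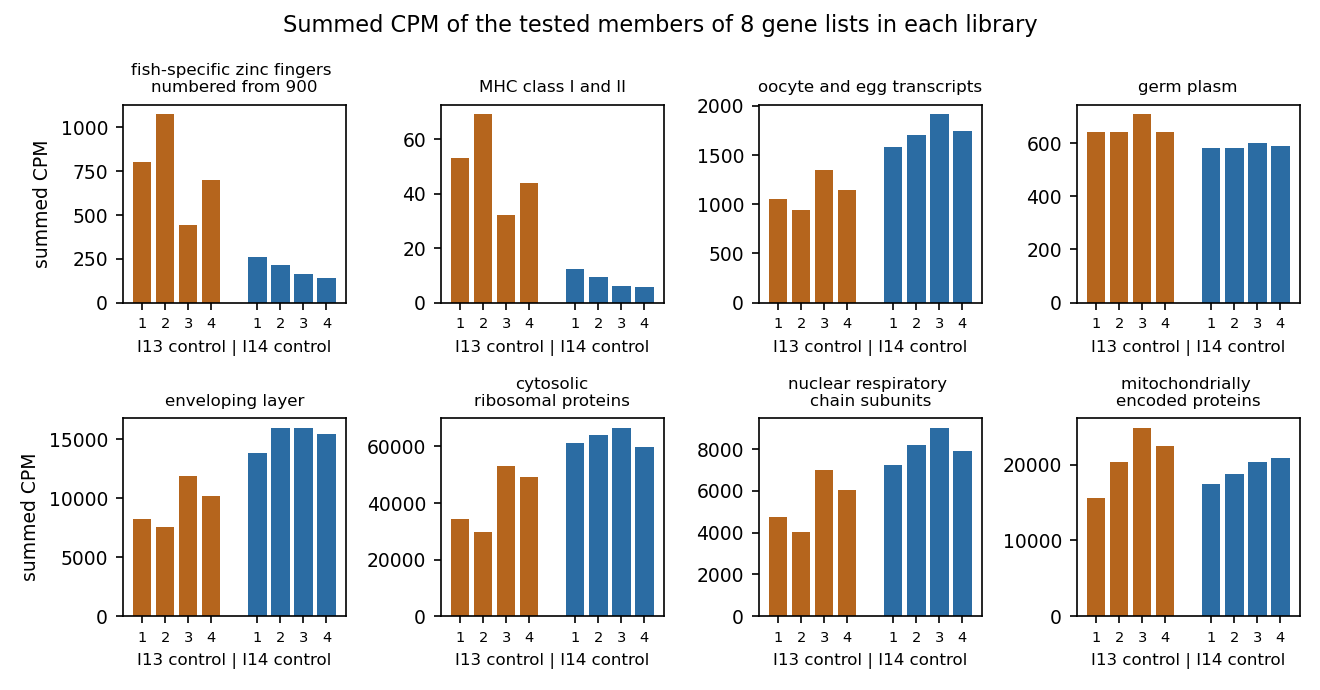
Summed CPM of the tested members of 8 gene lists in each library, I13 controls 1 to 4 left in brown and I14 controls 1 to 4 right in blue. A sum is weighted to the most abundant members, which are keratins in the enveloping layer list. The zinc finger list is highest in I13 control 2 (1075 CPM) and lowest in I14 control 4 (143 CPM), and the ribosomal protein list is lowest in I13 control 2 (29890 CPM).

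Cytosolic ribosomal proteins were lower in I13, by small amounts and unevenly among its libraries. Of 77 tested, 31 were lower (40.3%) and 1 was higher, with a median of -0.58. In all, 70 of the 77 lay in the top decile by mean CPM. In the top decile by mean log2 CPM, 36.7% were lower with a median of -0.46. The share of ribosomal proteins is thus near that of other abundant genes. Their sum was 34510, 29890, 53210 and 49050 CPM in I13 and 61280, 64120, 66600 and 59920 CPM in I14. Controls 1 and 2 of I13 thus stood lowest and controls 3 and 4 nearer to I14. Without controls 3 and 4 of I13, 52 of 78 were lower, with a median of -0.99. The count fell to 8 without I13 control 1, 19 without I13 control 2, 9 without I14 control 2, 8 without I14 control 3 and 15 without I14 control 4. RPL5 had 386, 319.5, 502 and 462 CPM in I13, against 786, 837, 874 and 833 CPM in I14 (adjusted p = 0.000177). RPL3, RPS14 and RPL12 were lower by 0.98, 0.84 and 0.83 on the log2 scale, and RPLP0 overlapped between batches (-0.73, adjusted p = 0.016).

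Nuclear genes of the respiratory chain had 34 lower (35.8%) and 6 higher (6.32%) of 95 and a median of -0.57, and 13 of them lay in the top decile by abundance. Their sum was 4725, 4029, 7017 and 6037 CPM in I13 and 7230, 8179, 9023 and 7891 CPM in I14. Without controls 3 and 4 of I13, 60 were lower and 2 higher. With one library left out it ranged from 13 (without I13 control 1) to 49 (without I13 control 3), and was 20, 18, 15 and 20 without I13 control 2 and I14 controls 2, 3 and 4. The higher genes numbered 3 without I13 control 4 and 2 without I14 control 2 or 3. The ATP synthase subunits ATP5F1A, ATP5F1B and *atp5mea* had log2 fold changes of -0.95, -0.73 and -1.19, the complex I subunit NDUFB4 -0.97 and the complex III subunit *uqcrc2a* -0.98, all DEG, though the libraries of ATP5F1B overlapped. COX4I1, a subunit of complex IV, was higher (1.23), with I14 control 1 at 54.0 CPM and the other I14 libraries at 23.8 to 27.6 CPM.

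Of 13 genes of the mitochondrial genome tested, 4 were higher (30.8%) and 2 lower (15.4%), with a median of 0.49 and 10 in the top decile. Without I13 controls 3 and 4, 2 were higher, and 1 was lower without any one library other than I13 control 3 or I14 control 1. MT-CYB had 1826, 2473, 2652 and 2600 CPM in I13, against 1070, 904, 924 and 953 CPM in I14 (1.31 ± 0.15, adjusted p = 3.25e-05), and MT-ND1 was higher by 0.68. MT-ND3 was lower (-0.99) with overlapping libraries. MT-ND6, the one protein gene on the other strand, was higher by 1.02, but had -0.20 in counts that ignore strand. MT-CO1 and MT-CO3 did not pass (-0.27 and 0.43). Mitochondrial ribosomal proteins, which are nuclear genes, had 12 higher (16.2%) and 13 lower (17.6%) of 74, with 1 in the top decile. MRPL1, MRPL19 and *mrps18b* were higher (1.46, 1.21 and 0.93), and MRPL2 and MRPL38 were lower (-0.83 and -0.69). The lower count depended on single libraries, from 4 without I13 control 1 to 21 without I13 control 3, with 6, 7, 5 and 8 without I13 control 2 and I14 controls 2, 3 and 4. Without I13 controls 3 and 4, 8 of these genes were higher and 24 lower.

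Cell cycle genes numbered 4 higher (16%) and 10 lower (40%) of 25, with 19 in the top decile by abundance. Without I13 controls 3 and 4, 3 were higher and 14 lower. MCM2, a subunit of the replicative helicase, had 117, 107, 186 and 139 CPM in I13, against 296, 341, 357 and 309 CPM in I14 (-1.25 ± 0.17, adjusted p = 8.34e-05), and PCNA, the sliding clamp of replication, was lower (-0.92). Cyclin A2 (CCNA2) overlapped and did not pass (-0.59, adjusted p = 0.0132). GMNN, which encodes the licensing inhibitor geminin, was higher (18.1 to 26.96 CPM in I13, 4.01 to 8.33 CPM in I14, 2.01), as were the cyclin E gene CCNE2 (1.62) and *mki67* (1.55), a marker of cycling cells.

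Of 44 proteasome subunits tested, 7 were higher (15.9%) and 14 lower (31.8%), with 18 in the top decile, and the lower ones numbered 3 to 20 with one library left out (3 without I13 control 1, 5 without I13 control 2, 8 without I13 control 4, 6, 6 and 7 without I14 controls 2, 3 and 4). PSMD12 had 75.4, 78, 38.7 and 75.1 CPM in I13 and 22.98, 9.97, 11.2 and 9.03 CPM in I14 (2.33 ± 0.30). PSMA2 and PSMD11 were higher (1.30 and 1.01). PSMC4 and PSMB7 were lower (-1.05 and -0.65), and PSMC3 missed both thresholds (-0.45, adjusted p = 0.0165). Without I13 controls 3 and 4, 6 subunits were higher and 23 lower.

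In the heat and cold list, 1 was higher (6.25%) and 5 lower (31.2%) of 16, with 8 in the top decile. Without I13 control 3 or I14 control 1, 2 were higher. HSPA5, a chaperone of the endoplasmic reticulum, had 126 to 158 CPM in I13 and 281 to 305 CPM in I14 (-1.03 ± 0.12, adjusted p = 3.05e-05), and the chaperones HSP90AB1, HSPA4 and HSPD1 were lower by 0.89, 0.90 and 0.76 on the log2 scale. The co-chaperone gene *dnajb1b* was higher (1.25). *cirbpb*, a cold-inducible RNA-binding protein, was not called (0.64, adjusted p = 0.0112). Among p53 targets, 1 was higher (*sesn3*, a sestrin, 1.19) and 1 lower (BTG2, an antiproliferative gene, -0.96) of 13 (7.69% each), with 3 in the top decile (2 higher without I13 control 1 and 3 without I14 control 1), and CCNG1 overlapped between batches (0.39). The 29 histone genes tested had a median of -0.13, and *h3f3a* and *h3f3d* overlapped between batches (-0.10 and -0.36). In the list of later tissues, which are expected to be absent, *myhz2* (0.15) and *ckma* (-0.20) were at 1.05 CPM or below in every library.

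Some symbols stand for a pair of genes, of which the values above are those of one. The other gene named PSMD11 (ENSDARG00000060150) went the opposite way and missed the fold threshold (-0.56, adjusted p = 0.00263). The other genes named PPM1L, MDK, ZNF710, GADD45G, RPL5, HSPA4, ACVR1B, BAMBI and RDH10 were not called, with log2 fold changes of -0.51, -0.50, -0.43, -0.63, -0.08, 0.12, -0.09, -0.40 and -0.32.

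Hardly any gene had reads in one batch only. With every library of one batch under 3 counts and every library of the other at 20 or more, *lrrc61* was the single gene found. It had 31, 75, 28 and 32 counts in I13 controls, against 0, 2, 0 and 1 counts in I14 controls, at least 9.58-fold higher against a floor of 3 counts per library. The exposed libraries had 50, 29, 23 and 25 counts in I13 and 1, 0 and 0 counts in I14. With a minimum of 10 counts, 15 genes were found, all with reads in I13, and with a minimum of 50 counts there were 0.

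The same genes differed in the exposed libraries of these batches, which the comparison of controls did not use. There the dose rate differs with the batch (0.05 mGy/h in I13, 0.005 mGy/h in I14) and cannot be told apart from it. Of 15489 genes tested, 6333 were DEG (40.9%), 3630 higher (23.4%) and 2703 lower (17.5%) in I13. Of the 5335 DEG of the controls that could be tested, 5332 (99.9%) had the same direction and 4659 (87.3%) were also DEG. Only 3 had the opposite direction and 0 of these were DEG. Exposed and control libraries carry the same batch label, so that the exposed libraries are a repeat within the batches. Whether they share a clutch, a day or an extraction is not given in the sources used here.

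Some lists went the same way in the exposed libraries, where 23.4% of all genes were higher and 17.5% lower. Others did not, as the median of the Nodal list turned from -0.13 to 0.06 and that of the p53 targets from -0.04 to 0.33. Of 176 fish-specific zinc finger genes, 136 were higher and 0 lower (median 2.28), with the same limit of the filter on counts. Of 28 oocyte transcripts, 16 were lower and 0 higher (median -0.86). Of 77 cytosolic ribosomal proteins, 54 were lower and 1 higher (median -1.06). The share among other abundant genes was not counted there, so that the ribosomal count is not set apart from theirs. *hmgn1a* had a log2 fold change of 3.07, *blf* 2.76, *npm2a* -1.61, OTX2 -2.02 and *cdx1a* -1.44 there. *vent* (3.34) and *mbd3b* (5.24) had larger values in the exposed libraries than in the controls (1.91 and 3.75), which was not a called difference.

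The test of the difference between the control contrast and the exposed contrast called 0 of 16349 genes with edgeR (598 at an unadjusted p under 0.05, smallest adjusted p of 1) and 0 with DESeq2. This does not show that the contrasts are equal.

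**Figure D5:**
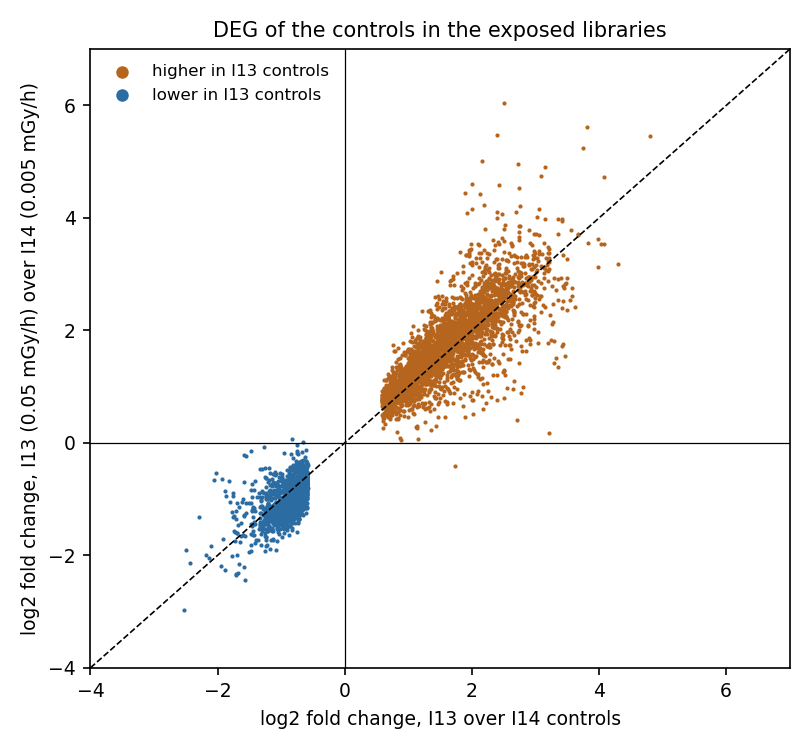
Log2 fold change of I13 over I14 in the exposed libraries (vertical) against that in the controls (horizontal) for the 5335 DEG of the controls tested in both. Points higher in I13 controls are brown and those lower blue, the dashed line marks equal values, and 5332 points lie on the same side of 0 on both axes.

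For most DEG, the controls of the other batches lay nearer to I13 than to I14. Over the 5359 DEG that could be read in all 20 controls scaled together, the mean log2 CPM of I30 was nearer to I13 for 4974 (92.8%) and that of I32 for 4344 (81.1%). Without controls 3 and 4 of I13 these shares were 91.7% and 76%. Higher and lower DEG gave similar shares, 92.9% and 92.7% in I30 and 80.9% and 81.3% in I32. Nearer does not mean alike. The mean lay between those of I13 and I14 for 2205 of the 5359 DEG in I30 and 3702 in I32, and outside that range for the rest. The zinc finger list summed to a mean of 859 CPM in I13 and 233 CPM in I14, with 789 CPM in I30 and 629 CPM in I32. These are descriptions over batches, and no test was made of them.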

How the data were processed

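RNA of pooled whole embryos was sequenced as stranded, poly(A)-selected paired-end libraries. The deposited values are raw counts of read pairs per Ensembl gene. Per the labels and the methods of the study, the authors trimmed adapters, mapped reads with STAR to GRCz11 and counted uniquely mapped pairs without normalisation. The column for reverse-stranded libraries (pairs whose first read is antisense to the gene) was taken. Of 32057 genes, 28988 had a symbol. Names are those of the gene table, which gives many zebrafish genes the human symbol in capitals, also where the fish has several copies.

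Batches were compared with edgeR 4.0.16 in R 4.3.3 (TMM scaling, two-sided quasi-likelihood test, Benjamini-Hochberg adjustment over all genes tested, genes kept by filterByExpr with its defaults, a count of 10 and a total of 15), with I13 over I14. The thresholds of DEG, a 1.5-fold difference and an adjusted p below 0.01, follow the study. Standard errors are the log2 fold change over the root of the F statistic. CPM used TMM-scaled totals, and 0.5 was added to counts before log2. The step was tested on simulated counts with a small set of well counted genes changed, as many up as down. That setting does not cover the many and uneven changes found here. Alternatives were DESeq2 1.42.0, other scalings, filters, thresholds and strand, thinning, a fit over all libraries, a replicate block, and libraries left out. Figures used matplotlib 3.10.9.

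Named genes were 10 DEG from each end of the ranking by log2 fold change (proper symbol, groups apart, at least 5 CPM in the higher group), the 5 smallest p values per direction, per list the 4 DEG with the smallest p and the 2 members with the highest CPM, and up to 5 genes per direction with reads in one batch only. A few of them are given by count alone. A result for 1 gene is not reported here. Members, lists and this rule were chosen with earlier results of these data known, so no list was given a test. Replicates within a batch differed by more than counting noise (chi-square per degree of freedom 7.46 to 137). In I14, pairs with control 1 had 50.6 to 61.9 and pairs without it 7.46 to 9.9. The replicates are pools of a single batch each, so that p-values measure the spread between pools within these batches and not between clutches. Counting intervals are not given, as the spread between pools exceeded counting error. Coordinates and sequences were not used here.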

Additional observations from a re-analysis of the deposited data

Results flagged for a closer look

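Single libraries that stood apart from the other 3 of their batch were looked for in 350 groups of 4 values, namely the CPM of each named gene, the summed CPM of each list and the library measures. 20 were found, 9 of them at I14 control 1. The groups reuse the same 8 libraries, so that the 1 in 20 expected of independent groups is no yardstick for this count. No explanation was tested.

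In I13, control 2 was high for *mbd3b* (22.54 CPM, the others 11.11 to 12.29), EIF4E (8.251 CPM, the others 3.746 to 4.285) and *lrrc61* (1.466 CPM, the others 0.7946 to 0.8646). Control 3 of I13 was low for PSMD12 (38.68 CPM, the others 75.07 to 78.0) and RXRB (103.1 CPM, the others 128.6 to 130.5), and high for *her1* (136.1 CPM, the others 115.1 to 117.7) and the germ plasm sum (708.5 CPM, the others 640.5 to 642.0). Control 1 of I13 was low for MT-ND6 (21.31 CPM, the others 31.06 to 31.9) and *myhz2* (0.6694 CPM, the others 0.9581 to 1.005).

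In I14, 9 of 11 cases concerned control 1. It was low for *vent* (12.44 CPM, the others 25.0 to 26.6), *krt8* (2579 CPM, the others 3115 to 3178) and *tbxta* (457.7 CPM, the others 555.3 to 568.6). It was high for COX4I1 (54.03 CPM, the others 23.77 to 27.56), PSMD12 (22.98 CPM, the others 9.032 to 11.21), *cirbpb* (8698 CPM, the others 4967 to 5572), PSMC3 (574.5 CPM, the others 472.5 to 480.8), *apoeb* (6503 CPM, the others 5959 to 6038) and the yolk syncytial layer sum (14670 CPM, the others 12810 to 13030). Control 4 of I14 was low for EIF4E (0.09123 CPM, the others 0.5038 to 0.5659) and high for the histone sum (14570 CPM, the others 13200 to 13380).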

How the results depend on the processing

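Counts of DEG between the controls ranged from 4754 to 6657 under other settings, except glmTreat and single libraries left out, against 5361. With glmTreat there were 1988 in the controls (1810 higher, 178 lower) and 3280 in the exposed libraries (2405 higher, 875 lower), as it asks for more than the fold threshold. With one library left out, the controls gave 4057 to 6204 DEG, 2674 to 3662 higher and 1383 to 2542 lower, where the lowest values were those without I13 control 2. The exposed libraries gave 5251 to 6455. The replicate block, in a design where numbers did not pair the samples (same-number correlations of deviations -0.074, 0.073, 0.174 and -0.041), gave 5708 DEG in the controls, 1799 lower genes in the exposed libraries against 2703, and 6 genes in the interaction against 0. Genes with reads in one batch only numbered 1, but 0 with at least 50 counts, 15 with at least 10 counts and 0 after thinning. The cause of these changes was not tested.

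Of 2913 values of the 146 named genes under these alternatives, 2754 kept direction and call, 104 lost and 49 gained the call, and 6 turned. MT-ND6 had -0.20 in unstranded counts. The other turns were near 0 in genes that were not called, *ckma* with 0.0075 after thinning and -0.3405 to 0.030 with one library left out (positive without I13 control 1), RDH10 with -0.0011 without I13 controls 3 and 4, *h3f3a* with -0.2168 to 0.010 (positive without I13 control 2) and *myhz2* with -0.0341 to 0.2899 (negative without I14 control 3). RLE size factors moved the median of all genes to -0.0023, against 0.022. Leaving out I13 controls 3 and 4 does not apply to the exposed libraries and was not run there.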

Other observations

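Genes that differ with exposure in other batches were read in the controls of I13 and I14, which share no library with those comparisons. Of 62 DEG at 0.5 mGy/h against I32 controls, all higher when exposed, 59 (95.2%) were DEG here. All 59 were higher in I13. Over all genes tested between the controls, 36.0% were DEG, with 22.0% higher and 14% lower in I13. Of 80 DEG at 5 mGy/h against I30 controls, 78 could be tested and 57 (73.1%) were DEG here. Of the 53 that were higher when exposed, 35 were lower and 1 was higher in I13. Of 25 tested that were lower when exposed, 21 were higher and 0 lower in I13. These counts stand against the same 22.0% higher and 14% lower of all genes. This reading was chosen after the values were seen, no test was made of it, and whether age at collection or another property of a batch has a part in it was not tested.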
